A study of Mus musculus with 14 samples.

Results

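The brain of wild-type mice at 2 to 3 months of age was compared with the wild-type brain at postnatal day 7 (P7). The comparison rests on 7 arrays, 4 of P7 brain and 3 of adult brain, out of 14 in the series. Members were taken by their titles, and every probe set that is not a control was kept for the description; 8366 of 12488 probe sets passed a filter on dim signal and were tested. All 7 arrays were labelled as male mice of strain C57Bl, untreated, with total RNA from the entire brain. The P7 mice were killed by decapitation and the adults by cervical dislocation, so the method of killing and age cannot be told apart. The other 7 arrays come from the brains of mice deficient in tenascin-R (gene Tnr), again males of strain C57Bl, 4 at P7 and 3 at 2 to 3 months. They are used below as a second set of arrays with the same age contrast, and they also entered the filter, the floor and the estimate of the spread behind each wild-type SE and p-value. The labels do not say whether each array holds 1 animal or a pool, so the p-values measure the spread between these arrays, which may be technical.

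In the first postnatal week of the mouse, neurons of the forebrain have been born and are extending axons and dendrites, while granule neurons of the cerebellum, the dentate gyrus and the olfactory bulb and most glial cells are still being produced. In the weeks that follow, synapses form and are pruned, ion channels and receptors reach their adult subunit makeup, astrocytes mature, and oligodendrocytes wrap axons in myelin. Whole-brain RNA averages over all of these cells, so fewer cells of a type and less RNA per cell cannot be told apart.

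Signals are intensities of a single-colour 3' array, scaled so that every array had the same median over the tested probe sets. Differences are log2 of adult over P7, with the standard error (SE) of a limma fit to all 14 arrays. A probe set is called higher or lower where its p-value, adjusted over all tested probe sets, was under 0.05. Values for a gene are given in the order of the arrays, 1 to 4 at P7 and 1 to 3 in the adult. Signals under 10.1 were raised to that floor before log2 was taken, so a difference that involves the floor is understated. The number of arrays, 4 against 3, limits the precision, and the median SE over all tested probe sets was 0.25. Intervals given below are 95% intervals of a single probe set, not adjusted for their number. Signals are not compared between probe sets. Unless an overlap is stated, every adult array of a gene said to rise or fall lay beyond every P7 array.

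The 7 arrays parted by age along principal component 1 (56.8% of the variance). The second component, 19.8%, parted P7 arrays 1 and 2 from P7 arrays 3 and 4. The 3'/5' signal ratio of the Gapdh control probe sets, a sign of how complete the labelled RNA was, lay between 2.25 and 2.82 at P7 and between 0.79 and 0.90 in the adult, whereas the actin ratio overlapped (1.17 to 1.68 against 1.09 to 1.35). Xist, a transcript of female cells, read 225 on P7 array 2 and 394 on adult array 1 and at most 23.5 on the other 5 arrays, against the label male. Markers of neurons (Snap25, Gad1), astrocytes (Aqp4, Glul), oligodendrocytes (Mbp, Mog), microglia (Csf1r, C1qb) and endothelium (Kdr, Tie1) were above the floor on all 7 arrays. Of markers of other tissues, Tnnt3 (muscle), Krt5 and Krt14 (skin) and Sag (retina) were too dim to be tested, whereas Acta1 and Ckm (muscle), Krt10 (skin) and Col2a1 (cartilage) were above the floor on all 7 arrays, Krt10 at 96.3 to 208 at P7 and 98.8 to 122 in the adult. None of these 4 passed the test. The part of these differences between arrays in the results below was not tested, except where a value without the arrays concerned is given.

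Between P7 and adult, 2566 of 8366 probe sets (30.7%) were called: 1083 higher (12.9%) and 1483 lower (17.7%) in the adult. Falls were the more frequent call and rises the larger ones. At least 4-fold, or 2 on the log2 scale, 203 rose and 82 fell, and at least 3 on the log2 scale 30 rose and 18 fell. Counted with 1 probe set per gene, 742 of 6265 genes (11.8%) rose and 1225 (19.6%) fell, and the median difference over all genes was -0.05. The counts of the gene lists below are read against these 2 shares. Of the called probe sets 42.2% were higher with this scaling; with the arrays scaled to their 2% trimmed mean, which moves the median of all probe sets to 0.17, 59.9% were. The count of 1083 rises was 697 without adult array 3, 711 without the 2 arrays that carry Xist signal, 1572 with the trimmed mean and 1680 with array weights. The 4 P7 and 3 adult arrays did not overlap in 3374 probe sets (40.3% of those tested). A further 453 probe sets (5.41%) had a 95% interval wholly within 0.5 of 0 on the log2 scale, while 5347 (63.9%) were neither called nor held within that range.

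Rises and falls were spread unevenly over signal strength. In the dimmest of 5 equal bins of the tested probe sets 23.5% rose and 4.72% fell, with a median difference of 0.48. In the brightest bin 6.34% rose and 35.9% fell, with a median of -0.34. The deposited 20th percentile was 6.4 to 7.7 on the P7 arrays and 14.5 to 18.2 on the adult arrays, so the low end of both distributions differed as well. Quantile normalization makes the distributions equal. For the lists below with most of their tested genes in the brightest bin, it moved the median from -0.58 to -0.20 for ribosomal proteins, from -0.41 to -0.21 for the proteasome and from -0.81 to -0.61 for migration and axon growth. It moved the median from 0.50 to 0.76 for astrocytes, from 0.60 to 0.74 for calcium-binding proteins, from 0.68 to 0.69 for glycolysis, from -0.10 to 0.14 for oxidative phosphorylation and from -0.26 to 0.05 for the citrate cycle. That normalization ended the calls given below for Gabrb1, Gfap, Grin2b, Id4, Ina, Ldha, Pou3f2, Stmn1, Stmn3 (the brighter probe set), Tmsb4x, Tuba1c, Tubb4b, Tubb5 and Vamp2. Scaling to the trimmed mean or the 75th percentile ended those of Gfap, Hes5, Ldha, Mcm2, Pcna, Prph, Stmn1, Stmn3 (the same probe set) and Vamp2.

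**Figure D1:**
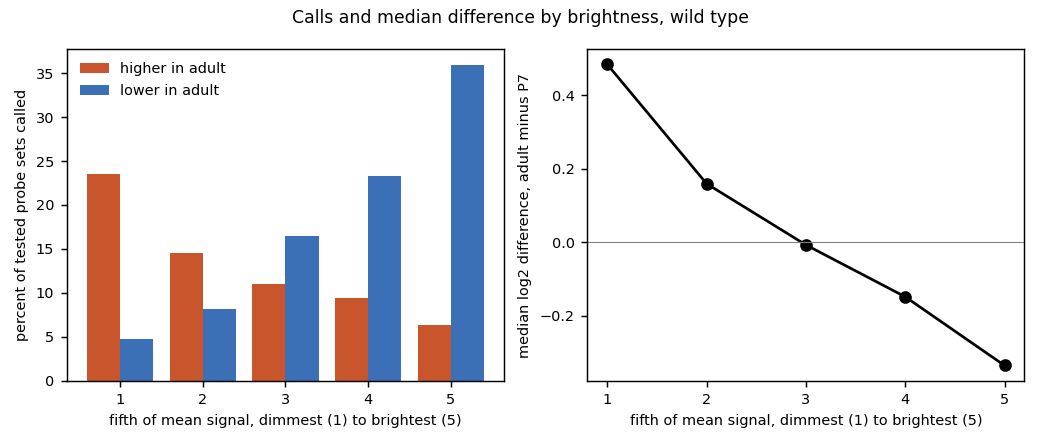
Left, the percentage of tested probe sets called higher (orange) or lower (blue) in adult wild-type brain, in 5 equal bins of mean signal from dimmest (1) to brightest (5). Right, the median log2 difference, adult minus P7, in the same bins, which runs from 0.48 to -0.34.

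Mitosis genes fell more often than genes at large. Dividing cells copy their DNA with the helicase subunits Mcm2 to Mcm7, the sliding clamp Pcna and its loader Rfc, and then separate chromosomes with cyclin B and Cdk1, condensins and kinesins. Of 34 mitosis genes tested, 16 fell and 1 rose, with a median of -0.93; of 31 genes of DNA replication, 6 fell and none rose, with a median of -0.44. The share of falls was 19.6% over all genes, so with median scaling the replication list, at 19.4%, lay at the background and the mitosis list, at 47.1%, above it. Quantile normalization gave 11 falls in the replication list and 24 in the mitosis list, with 1073 over all genes. The trimmed mean gave 2 and 13, with 863 over all genes. With P7 arrays 1 and 2 alone, 2 replication genes fell (median -0.23) and 10 mitosis genes (median -0.55), with 927 over all genes. With P7 arrays 3 and 4 alone, 7 replication genes fell (median -0.56) and 19 mitosis genes (median -1.27), with 1172 over all genes. In the list of D-type and other G1 cyclins, CDK inhibitors and Myc factors, 10 of 18 fell, with a median of -0.89.

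Many genes that are transcribed for mitosis carry a CHR element (TTTGAA) and CCAAT boxes (CCAAT) next to the start of transcription, and S-phase genes often carry an E2F element. These letters were searched on both strands in windows of 300 bases, from 250 before to 50 after the RefSeq start of each gene (build GRCm38.p6); the E2F letters were TTTCCCGC, TTTCGCGC, TTTGCCGC and TTTGGCGC. A window was at hand for 5027 of the 6265 tested genes. The CHR letters stood in 21 of 28 mitosis genes with a window (75%), in 12 of the 14 of them that fell, and in 14.4% of all tested genes. CCAAT stood in 22 of the 28 (78.6%) against 42.6% of all tested genes. The E2F letters stood in 9 of 28 replication genes (32.1%) and 1 of 28 mitosis genes (3.57%), against 4.73% of all tested genes. CHR letters were in 5 of the 28 replication genes (17.9%). The windows of 3 mitosis genes that fell and of 1 replication gene that fell are shown 5' to 3', in lower case with the CHR, CCAAT and E2F matches in capitals, Ccnb2 and Cdc20 as examples of CHR with CCAAT, Cdk1 as the mitosis gene that also holds an E2F match, and Rfc3 as 1 of the 9 replication genes with E2F letters:
Ccnb2 (chr9:70421505-70421804, minus strand): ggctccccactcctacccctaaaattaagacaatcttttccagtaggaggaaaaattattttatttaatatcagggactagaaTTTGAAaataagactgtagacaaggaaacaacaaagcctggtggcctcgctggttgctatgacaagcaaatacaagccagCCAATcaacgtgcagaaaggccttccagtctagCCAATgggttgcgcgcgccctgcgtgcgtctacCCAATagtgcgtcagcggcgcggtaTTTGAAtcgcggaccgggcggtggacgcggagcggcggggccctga
Cdc20 (chr4:118437294-118437593, minus strand): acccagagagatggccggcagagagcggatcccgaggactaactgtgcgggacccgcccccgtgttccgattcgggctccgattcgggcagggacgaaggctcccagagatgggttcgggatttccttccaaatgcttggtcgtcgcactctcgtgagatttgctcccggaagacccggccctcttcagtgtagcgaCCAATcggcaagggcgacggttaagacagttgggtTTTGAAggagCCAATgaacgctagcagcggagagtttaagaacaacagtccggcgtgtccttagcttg
Cdk1 (chr10:69352863-69353162, minus strand): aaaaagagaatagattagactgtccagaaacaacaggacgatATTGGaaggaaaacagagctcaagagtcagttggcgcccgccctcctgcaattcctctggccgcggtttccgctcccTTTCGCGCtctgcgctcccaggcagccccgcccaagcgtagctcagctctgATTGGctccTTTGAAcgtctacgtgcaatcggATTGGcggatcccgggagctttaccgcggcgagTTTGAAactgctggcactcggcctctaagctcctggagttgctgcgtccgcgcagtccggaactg
Rfc3 (chr5:151651159-151651458, minus strand): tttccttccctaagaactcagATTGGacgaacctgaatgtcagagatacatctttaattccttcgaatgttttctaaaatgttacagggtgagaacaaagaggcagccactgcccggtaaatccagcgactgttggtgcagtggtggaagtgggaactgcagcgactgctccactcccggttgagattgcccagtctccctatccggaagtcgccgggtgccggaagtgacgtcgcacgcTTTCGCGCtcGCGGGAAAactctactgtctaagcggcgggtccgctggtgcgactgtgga
Cdc20 and Cdk1 were chosen for their windows after their values were seen. The Ccnb2 window holds 2 CHR and 3 CCAAT matches, that of Cdc20 1 and 2, and that of Cdk1 2 and 3 with 1 E2F match; the Rfc3 window holds 2 E2F matches and 1 CCAAT. A match of letters is a description of the window and not of a bound site.

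Ccnb2, a B-type cyclin of mitosis, read 384, 343, 404 and 456 at P7 and 126, 143 and 158 in the adult (log2 difference -1.48, SE 0.16, adjusted p = 1.2e-05). Smc4, a condensin subunit that compacts chromosomes, read 156, 173, 224 and 254 at P7 and 47.8, 32.6 and 57.3 in the adult (log2 difference -2.15, SE 0.24, adjusted p = 1.4e-05). Every adult array lay under every P7 array for both. Cdc20, the activator of the anaphase-promoting complex, went from 213 ± 35.9 (SD, n = 4) to 103 ± 15.1 (SD, n = 3; log2 difference -1.05, SE 0.22, adjusted p = 0.0024). Of the replication genes, the clamp loader subunit Rfc5 read 169.8, 163, 145 and 186 at P7 and 68.8, 43.99 and 58.3 in the adult (log2 difference -1.56, SE 0.26, adjusted p = 5.0e-04). The ribonucleotide reductase subunit Rrm2 read 74.99, 105, 89.7 and 84.03 at P7 and 25.99, 30.7 and 46.2 in the adult (log2 difference -1.40, SE 0.31, adjusted p = 0.0038). A dimmer Rfc5 probe set did not pass (log2 difference 0.26, adjusted p = 0.48). The clamp Pcna read 239, 266, 572 and 626 at P7 and 245, 192 and 152 in the adult (log2 difference -1.01, SE 0.33, adjusted p = 0.029), so that adult array 1 overlapped with P7 array 1. Its call ended without P7 array 3, P7 array 4, adult array 2 or adult array 3, with adjusted p up to 0.13. The helicase subunit Mcm2 (log2 difference -0.65, SE 0.21, adjusted p = 0.031) lost its call without any wild-type array other than P7 array 2 and adult array 2, with adjusted p up to 0.11. The kinase Cdk1 read 78.6, 73.7, 180.4 and 154 at P7 and lay under the floor on all 3 adult arrays. Against these, Ube2c, a ubiquitin-conjugating enzyme of the anaphase-promoting complex, was the 1 mitosis gene that rose and is named for that, from 13.99, 36.7, 9.35 and 34.8 to 96.96, 64.2 and 118 (log2 difference 2.13, SE 0.49, adjusted p = 0.0044), with P7 array 3 under the floor.

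Upstream of the cell cycle, Mycn, a transcription factor of neural progenitors, read 294, 281, 275 and 268 at P7 and 37.6, 51.4 and 61.3 in the adult (log2 difference -2.51, SE 0.22, adjusted p = 1.7e-06). Mycl read 344, 321, 279.7 and 379 at P7 and 17.7, 89.6 and 83.2 in the adult (log2 difference -2.69, SE 0.42, adjusted p = 2.7e-04). Cyclin D2, Ccnd2, which drives the division of cerebellar granule cell precursors, read 94.4, 129, 256 and 313 at P7 and 16.8, 13.1 and 58.1 in the adult (log2 difference -2.92, SE 0.53, adjusted p = 8.7e-04), with P7 arrays 3 and 4 above arrays 1 and 2. The other D-type cyclins did not pass: Ccnd1 had a log2 difference of 0.27 (95% interval -0.19 to 0.74) and Ccnd3 one of -0.13 (-0.57 to 0.31). Cdkn1c, which encodes the CDK inhibitor p57, fell, from 219.7, 277, 209.9 and 229.9 to 67.1, 59.3 and 67.9 (log2 difference -1.85, SE 0.21, adjusted p = 2.2e-05).

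**Figure D2:**
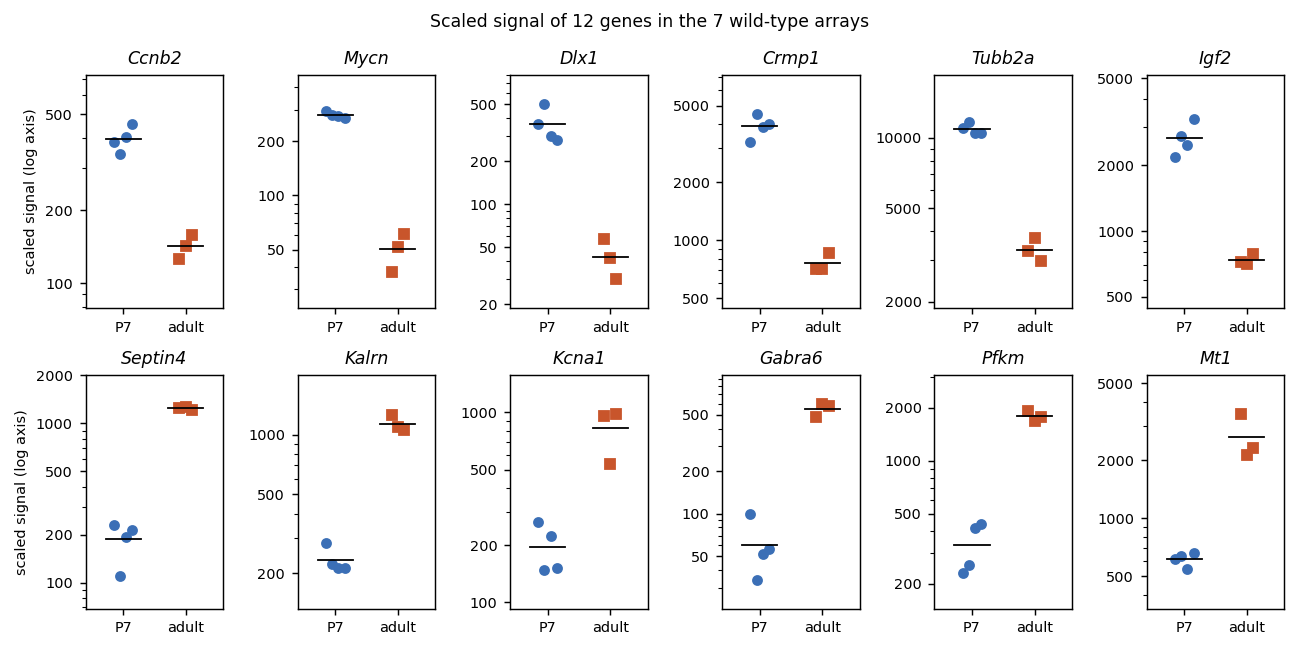
Scaled signal (log axis) of 12 genes on the 4 P7 arrays (blue circles) and 3 adult arrays (orange squares) of wild-type brain; lines are group means. The upper row shows genes that fell and the lower row genes that rose, and in each panel all adult arrays lie on one side of all P7 arrays.

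Progenitor genes and neuronal transcription factors often fell and hardly ever rose. Of 29 progenitor and radial glia genes, 13 fell and none rose (median -0.63), and of 51 neuronal transcription factors, 22 fell and 1 rose (median -0.54). Sox3, a SoxB1 factor of neural progenitors, read 411, 335, 337 and 307 at P7 and 142, 145 and 173 in the adult (log2 difference -1.17, SE 0.26, adjusted p = 0.0032). Hes5, a target of Notch signalling that holds progenitors undifferentiated, read 137, 176, 88.7 and 75.02 at P7 and 31.3, 64.9 and 69.7 in the adult (log2 difference -1.11, SE 0.34, adjusted p = 0.023); its call ended without P7 array 1, P7 array 2 or adult array 1, with adjusted p up to 0.13.

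Dlx1 and Dlx2 are neighbouring homeobox genes of GABAergic interneuron precursors. Dlx1 read 363, 505, 301 and 281 at P7 and 56.8, 41.9 and 29.9 in the adult (log2 difference -3.09, SE 0.25, adjusted p = 9.0e-07). Dlx2 fell 9.54-fold (log2 difference -3.25, SE 0.27, adjusted p = 1.2e-06). Both SoxC factors, which act in newly made neurons, fell on every probe set tested. The log2 differences were -2.09 and -1.71 for Sox4 and -2.04 and -1.29 for Sox11. Sox11 on its brighter probe set read 537, 623, 705 and 645 at P7 and 175, 119 and 170.5 in the adult (adjusted p = 9.7e-05), whereas the call of the dimmer one ended without adult array 3, with adjusted p = 0.064. Nr2f1, the nuclear receptor COUP-TFI that patterns the cortex, read 1018, 1193, 1552 and 1623 at P7 and 324, 299 and 275 in the adult (log2 difference -2.15, SE 0.22, adjusted p = 8.5e-06). Pou3f2 was the 1 factor called higher, at low signal: 22.7, 16.2, 17.02 and 15.1 at P7 and 46.3, 50.2 and 28.7 in the adult (log2 difference 1.21, SE 0.40, adjusted p = 0.033). Its call ended without any wild-type array other than P7 array 1 and adult array 3, with adjusted p up to 0.12.

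Genes of migration and axon growth had 20 falls and 1 rise among 37 tested, with a median of -0.81. Cd24a, a glycoprotein on the surface of immature neurons, read 1089.9, 1868, 1739 and 1807 at P7 and 157, 183 and 189 in the adult (log2 difference -3.18, SE 0.21, adjusted p = 2.9e-07). Marcksl1, a substrate of protein kinase C at the membrane that regulates actin, read 3605, 3718, 3189 and 3203 at P7 and 422, 521 and 544 in the adult (log2 difference -2.80, SE 0.16, adjusted p = 1.9e-07).

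Axon guidance genes were called about as often as genes at large: 5 of 36 rose (13.9%) and 8 fell (22.2%), against 11.8% and 19.6%, with a median of -0.23 that turned positive, to 0.10, with P7 arrays 3 and 4 alone. The receptor Epha4 rose, from 47.4, 71.4, 76.8 and 67.4 to 151, 168 and 222 (log2 difference 1.46, SE 0.34, adjusted p = 0.0047). The ephrin ligand Efnb3 fell, from 1565, 1605, 1391 and 1577 to 551, 658 and 767 (log2 difference -1.23, SE 0.14, adjusted p = 1.8e-05), while that of its second probe set was 0.05. The semaphorin receptor Nrp1 fell, from 286, 378, 387 and 392 to 166, 154 and 219 (log2 difference -1.01, SE 0.20, adjusted p = 0.0014). Of the cadherin, protocadherin and contactin families, 6 of 14 fell and 1 rose. The GPI-anchored cadherin Cdh13 read 398, 354, 604 and 582 at P7 and 58.1, 80.8 and 51.5 in the adult (log2 difference -2.92, SE 0.30, adjusted p = 8.6e-06). Cdh4 (R-cadherin) fell from 205 ± 58.6 (SD, n = 4) to 72.5 ± 30.2 (SD, n = 3; log2 difference -1.56, SE 0.31, adjusted p = 0.0018). A second Cdh4 probe set did not pass (log2 difference 0.16). The gene that rose, Cntnap1, encodes Caspr of the paranodal junction between axon and myelin: it read 114, 55.3, 52.8 and 26.8 at P7 and 102, 196 and 262 in the adult (log2 difference 1.67, SE 0.47, adjusted p = 0.014), with overlapping groups, and its call ended without adult array 2 or adult array 3, with adjusted p up to 0.080.

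The cytoskeleton changed isoform by isoform. Tubulins are the subunits of microtubules, and their isotypes differ between growing and mature neurons; near-identical isotypes can share probes. Of 71 cytoskeletal genes, 24 fell and 9 rose, with a median of -0.16 that turned to 0.01 under 2% trimmed-mean and 75th-percentile scaling.

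Tuba1a, the main alpha tubulin of postmitotic neurons, fell on both probe sets, from 14654, 11573, 13814 and 13369 to 6458, 4767 and 4780.5 on the one (log2 difference -1.33, SE 0.17, adjusted p = 4.8e-05) and with a log2 difference of -1.18 on the other. Tuba1c fell (log2 difference -0.67, SE 0.13, adjusted p = 0.0014), a call that quantile normalization ended. Tuba4a rose, from 751, 524, 540.2 and 647 to 989, 865 and 956 (log2 difference 0.62, SE 0.20, adjusted p = 0.031), but its call ended without any wild-type array other than P7 array 1 and P7 array 4, with adjusted p up to 0.091. Tuba8 did not pass (log2 difference 0.28, 95% interval -0.08 to 0.65).

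Among beta tubulins, Tubb3, the class III isotype that marks neurons, fell on both probe sets (log2 differences -1.31 and -2.21). Tubb5 fell on both of its own (log2 differences -1.32 and -0.93). Tubb6 fell too (log2 difference -0.84, SE 0.21, adjusted p = 0.0081; not called without adult array 2, with adjusted p = 0.056). Tubb2a on its bright probe set read 11016, 11663, 10543 and 10533 at P7 and 3278, 3730.2 and 2994 in the adult (log2 difference -1.72, SE 0.13, adjusted p = 6.9e-07). A second, dim probe set of Tubb2a rose, from 89.9, 32.6, 60.9 and 48.9 to 105, 180.2 and 164 (adjusted p = 0.0024), so the 2 disagree. Tubb4a, the isotype of oligodendrocytes and mature neurons, moved against the rest: it read 1319, 1307, 1985 and 2436 at P7 and 3895, 4676 and 4500.1 in the adult (log2 difference 1.35, SE 0.39, adjusted p = 0.017), a call that ended without adult array 2 or adult array 3, with adjusted p up to 0.056. Tubb4b also rose at low signal (log2 difference 1.27, SE 0.38, adjusted p = 0.021), and lost its call without P7 array 4, adult array 1 or adult array 3, with adjusted p up to 0.070.

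The collapsin response mediators, cytosolic proteins that act on microtubules in growth cones, went in both directions. Crmp1 read 3245, 4527, 3882 and 4007 at P7 and 708, 709 and 857 in the adult (log2 difference -2.36, SE 0.15, adjusted p = 2.2e-07). Dpysl3 fell (log2 difference -2.16, SE 0.51, adjusted p = 0.0050) and so did Dpysl4 (log2 difference -1.52, SE 0.21, adjusted p = 1.0e-04). Dpysl2 was called higher (log2 difference 0.47, SE 0.16, adjusted p = 0.040), a call that ended without any wild-type array other than P7 array 2, with adjusted p up to 0.17. Of the microtubule-destabilizing stathmins, Stmn2 (SCG10) fell on its 2 bright probe sets (log2 differences -1.01 and -1.64). Another, dim one had a log2 difference of 0.81 and did not pass. Stmn1 fell (log2 difference -0.63, SE 0.18, adjusted p = 0.015; not called without adult array 3, with adjusted p = 0.052), and so did both probe sets of Stmn3 (log2 differences -0.87 and -0.65). The call of the brighter Stmn3 probe set ended without P7 array 2, adult array 2 or adult array 3, with adjusted p up to 0.081. Stmn4 did not pass (log2 difference -0.40, 95% interval -0.74 to -0.07).

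Several actin-binding proteins fell as well. Thymosin beta 10, Tmsb10, which sequesters actin monomers, read 5025, 5300.1, 7002 and 7412 at P7 and 1638, 1561 and 1408 in the adult (log2 difference -1.99, SE 0.16, adjusted p = 9.0e-07). Its relative Tmsb4x went from 3718, 3730.0, 5133 and 5364 to 2714, 2362 and 2306 (log2 difference -0.85, SE 0.21, adjusted p = 0.0077). Quantile normalization ended that call. Cfl2, an actin-severing cofilin, fell 4.3-fold (log2 difference -2.10, SE 0.19, adjusted p = 2.0e-06). Kif5a, a neuronal kinesin heavy chain that carries cargo along axons, had the largest rise among the cytoskeletal genes: it read 60.9, 51.5, 67.3 and 40.5 at P7 and 386, 549 and 802 in the adult (log2 difference 3.36, SE 0.74, adjusted p = 0.0034).

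Each of the 4 calls among intermediate filaments of neurons ended when 1 array was left out. Ina (alpha-internexin), the filament of young axons, fell on 1 probe set (log2 difference -0.81, SE 0.22, adjusted p = 0.013; not called without adult array 2, with adjusted p = 0.056) and did not pass on the other (log2 difference -0.46). Prph (peripherin) fell as well (log2 difference -1.19, SE 0.41, adjusted p = 0.039; not called without any wild-type array other than P7 array 2 and adult array 3, with adjusted p up to 0.16). Of the neurofilament subunits of mature axons, Nefl was called higher (log2 difference 0.81, SE 0.29, adjusted p = 0.045), a call that ended without any wild-type array other than P7 array 1 and P7 array 2, with adjusted p up to 0.14. Nefh was called higher too (log2 difference 0.60, SE 0.20, adjusted p = 0.032), with overlapping groups, and lost its call without any wild-type array other than P7 array 1 and adult array 3, with adjusted p up to 0.12. Nefm had a log2 difference of 1.55 with an SE of 0.60 and did not pass (adjusted p = 0.061): it read 204, 96.3, 61.02 and 51.8 at P7 and 311, 211 and 269 in the adult. Vim and Nes did not pass either (log2 differences 0.91 and -0.33).

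**Figure D3:**
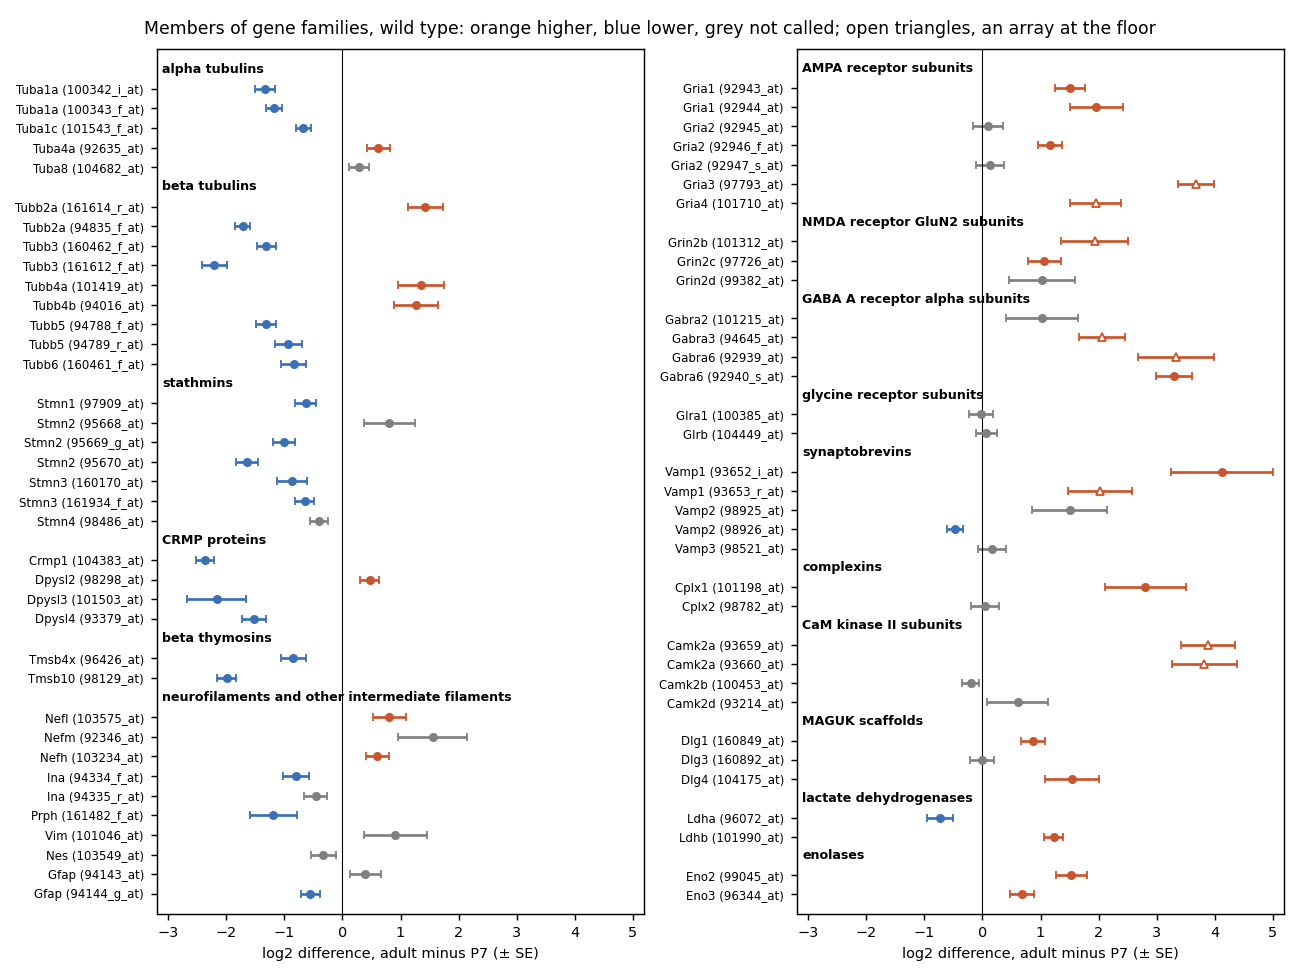
Log2 difference, adult minus P7, with its SE for each tested probe set of 16 gene families in wild-type brain; orange is called higher, blue called lower, grey not called, and open triangles have at least 1 wild-type array at the floor. Tubulin, stathmin and CRMP members lie on both sides of 0, and all called glutamate receptor subunits lie above it.

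Receptor subunits for glutamate and GABA rose more often than genes at large. Of 11 ionotropic glutamate receptor subunits, 6 rose and none fell, with a median of 1.06; of 10 GABA A and glycine receptor subunits, 4 rose and 1 fell (median 1.15). Only 3 of the 11 and 2 of the 10 lay in the brightest bin, and rises were more frequent among dim probe sets. The medians were 1.04 and 0.79 under quantile normalization. They were 0.63 and 1.59 with P7 arrays 1 and 2 alone, and 1.45 and 0.66 with P7 arrays 3 and 4 alone. The AMPA subunit Gria1 read 234, 224, 376 and 302 at P7 and 698, 733 and 954 in the adult (log2 difference 1.50, SE 0.26, adjusted p = 5.6e-04). Its other probe set rose with a log2 difference of 1.96. Gria2, the subunit that makes AMPA receptors impermeable to calcium, gave probe sets that disagree: 1 rose (log2 difference 1.17, SE 0.21, adjusted p = 8.0e-04), while the 2 brighter ones had log2 differences of 0.09 and 0.13 (95% intervals -0.47 to 0.65 and -0.39 to 0.64). Gria3 and Gria4 were each at the floor on 3 of the 4 P7 arrays and at 112, 157 and 132 and 30.3, 38.95 and 78.3 in the adult. The NMDA subunit Grin2c, typical of mature cerebellar granule cells, read 341, 204, 137 and 151 at P7 and 390.2, 417 and 417 in the adult (log2 difference 1.06, SE 0.29, adjusted p = 0.012). Grin2b was called higher at low signal (log2 difference 1.93, SE 0.58, adjusted p = 0.020) with 1 P7 array at the floor, and the call ended without adult array 2 or adult array 3, with adjusted p up to 0.063. Grin2d did not pass (log2 difference 1.03, SE 0.56).

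Of GABA A receptor subunits, Gabrb2 read 14.1, 11.1, 14.05 and 31.1 at P7 and 90.6, 83.4 and 196 in the adult (log2 difference 2.82, SE 0.50, adjusted p = 7.4e-04) and Gabrd, a subunit of extrasynaptic receptors, 76.5, 31.6, 13.7 and 18.3 at P7 and 116, 193 and 136 in the adult (log2 difference 2.37, SE 0.58, adjusted p = 0.0065). The beta subunit Gabrb1 moved the other way, from 1391, 1237, 709 and 608 to 523, 404 and 437 (log2 difference -1.04, SE 0.30, adjusted p = 0.017). Its call ended under quantile normalization and without adult array 2 or adult array 3, with adjusted p up to 0.064. Gabra6, restricted to cerebellar granule cells, rose on both probe sets (log2 differences 3.30 and 3.33), the second with P7 array 2 under the floor. Gabra3 was under the floor on 3 of the 4 P7 arrays and read 51.9, 60.3 and 33.04 in the adult, and Gabra2 did not pass (log2 difference 1.03, SE 0.62). The 2 glycine receptor subunits tested did not pass, Glra1 with a 95% interval of -0.48 to 0.43 and Glrb with -0.31 to 0.45.

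At the presynapse, 9 of 38 genes rose and 5 fell, with a median of 0.24, so both directions occurred. Cplx1, a complexin that clamps the fusion machinery, read 200.4, 178, 324 and 304 at P7 and 1350.2, 1997 and 1829 in the adult (log2 difference 2.80, SE 0.70, adjusted p = 0.0074). Cplx2, its relative, did not pass, with a log2 difference of 0.05 and a 95% interval of -0.48 to 0.57. The active-zone scaffold Bsn (bassoon) read 37.2, 25.05, 13.9 and 10.8 at P7 and 62.8, 177 and 190.3 in the adult (log2 difference 2.73, SE 0.61, adjusted p = 0.0036). Syt11, a synaptotagmin, rose 4.96-fold (log2 difference 2.31, SE 0.55, adjusted p = 0.0059). Slc32a1, the vesicular GABA transporter, fell, from 3448, 2967, 2394 and 2978 to 1333, 1492 and 1423 (log2 difference -1.05, SE 0.15, adjusted p = 1.6e-04).

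The 2 neuronal synaptobrevins, the vesicle SNAREs, differed in pattern. Vamp1 read 46.99, 88.9, 10.7 and 11.8 at P7 and 525, 332 and 593 in the adult on its brighter probe set (log2 difference 4.12, SE 0.88, adjusted p = 0.0028). Vamp2 fell on its brighter probe set, from 5576, 4501, 4372 and 4704 to 3266, 3609 and 3421 (log2 difference -0.47, SE 0.14, adjusted p = 0.020), a call that the 3 other scalings ended and that ended without adult array 1 or adult array 3, with adjusted p up to 0.070. Its dimmer probe set read 709, 601, 104 and 110.2 at P7, with the pairs of arrays far apart, and did not pass (log2 difference 1.50, SE 0.64, adjusted p = 0.091). Vamp3, the form found in most cells, did not pass (log2 difference 0.17).

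In the postsynaptic density, 9 of 30 genes rose and 3 fell (median 0.22). Kalrn, a guanine-nucleotide exchange factor of dendritic spines, read 284, 224, 213 and 213 at P7 and 1248, 1086 and 1050.4 in the adult (log2 difference 2.28, SE 0.23, adjusted p = 6.9e-06), while its dim probe set did not pass (log2 difference 0.65). Rasgrf1, a calcium-regulated exchange factor, read 183, 211, 189.8 and 126 at P7 and 648, 761 and 642 in the adult (log2 difference 1.97, SE 0.22, adjusted p = 1.8e-05). Dlg4, which encodes the scaffold PSD-95, read 165, 201, 218 and 295 at P7 and 506, 702 and 698 in the adult (log2 difference 1.55, SE 0.47, adjusted p = 0.021), and the call ended without adult array 2 or adult array 3, with adjusted p up to 0.072. Dlg1 rose (log2 difference 0.86, SE 0.21, adjusted p = 0.0059) and Dlg3 had a log2 difference of -0.01 (95% interval -0.44 to 0.42). Cnih2, an auxiliary subunit of AMPA receptors, fell, from 1888, 2242, 1016 and 1365 to 727, 624 and 753 (log2 difference -1.15, SE 0.24, adjusted p = 0.0020). Dlgap4, a scaffold protein, fell (log2 difference -1.28, SE 0.26, adjusted p = 0.0020). Of CaM kinase II, the alpha subunit was at or near the floor at P7 and at 171, 166 and 231 in the adult on its brighter probe set, while the beta subunit did not pass (Camk2b, log2 difference -0.20, 95% interval -0.51 to 0.11), nor did the delta subunit (Camk2d, 0.61, -0.52 to 1.74).

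Potassium channels rose more often than genes at large. Of 31 potassium channel genes, 12 rose and 4 fell (median 0.40). The axonal Shaker channel Kcna1 read 264, 148, 223 and 151 at P7 and 958, 533 and 986 in the adult (log2 difference 2.06, SE 0.27, adjusted p = 7.9e-05). All 3 cytoplasmic beta subunits that attach to such channels rose: Kcnab2 read 76.01, 99.4, 95.7 and 170.1 at P7 and 711, 680.5 and 544 in the adult (log2 difference 2.60, SE 0.51, adjusted p = 0.0015; log2 difference 1.58 on a second probe set, also called), and Kcnab1 and Kcnab3 rose with log2 differences of 1.81 and 2.48 (adjusted p = 7.8e-04 and 0.0024). A second probe set of Kcnab1 did not pass (log2 difference 0.80, adjusted p = 0.15). Hcn3, a channel opened by hyperpolarization, and Kcnk2, a potassium leak channel, fell with log2 differences of -1.10 and -0.85 (adjusted p = 4.5e-04 and 0.0055). The voltage-gated sodium channels Scn1a and Scn8a, the forms of mature neurons, both rose: Scn8a read 224, 109.8, 153 and 136 at P7 and 310.2, 400.4 and 425 in the adult (log2 difference 1.32, SE 0.30, adjusted p = 0.0039). Scn1a rose on its 2 probe sets with log2 differences of 1.51 and 1.41.

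Calcium channel genes went both ways, with 2 rises and 2 falls among 8. The auxiliary subunit Cacna2d1 rose, from 93.1, 79.4, 77.7 and 64.2 to 149, 156 and 164 (log2 difference 1.00, SE 0.25, adjusted p = 0.0071). The T-type channel Cacna1g fell, from 212, 192, 203 and 173 to 152, 80.8 and 67.00 (log2 difference -1.05, SE 0.26, adjusted p = 0.0077; not called without adult array 3, with adjusted p = 0.052). The 2 chloride cotransporters whose balance sets the sign of the GABA response did not pass. Slc12a5 (KCC2) read 202, 194, 77.2 and 70.2 at P7 and 147, 196 and 286 in the adult (log2 difference 0.74, SE 0.37, adjusted p = 0.14), with the P7 pairs of arrays far apart, and Slc12a2 (NKCC1) had a log2 difference of 0.67 (95% interval 0.01 to 1.33).

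Of 17 ion pumps and cotransporters 2 rose and 3 fell, shares near the background of 11.8% and 19.6%. Of 11 neurotransmitter transporters 2 rose and 1 fell, and of 18 monoamine and acetylcholine genes 5 rose and none fell. Atp2a3, a calcium pump of the endoplasmic reticulum that is strong in Purkinje cells, rose, from 123, 82.4, 106 and 80.3 to 330.1, 271 and 236 (log2 difference 1.52, SE 0.23, adjusted p = 2.3e-04). The neutral amino acid transporter Slc1a4 fell, from 769, 1021, 894 and 806 to 409, 434 and 431 (log2 difference -1.03, SE 0.15, adjusted p = 1.3e-04).

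Of 16 calcium-binding proteins, 7 rose and 2 fell (median 0.60). Parvalbumin, Pvalb, the buffer of fast-spiking interneurons and Purkinje cells, rose on both probe sets (log2 differences 1.25 and 2.41) and read 1131, 610.2, 1172 and 910.0 at P7 and 2409.8, 2211 and 1989.5 in the adult on the brighter (adjusted p = 6.3e-04). S100b, a protein of astrocytes, read 207, 153, 225 and 286 at P7 and 684, 685 and 525 in the adult (log2 difference 1.56, SE 0.23, adjusted p = 1.7e-04). S100a10 fell, from 573, 583, 713 and 713 to 261, 218 and 199 (log2 difference -1.52, SE 0.17, adjusted p = 2.0e-05), though its second, dim probe set had a log2 difference of 0.00. Calb2 did not pass (95% interval -0.04 to 0.98). The call of Calb1 (log2 difference 0.72, SE 0.25, adjusted p = 0.036), whose groups overlap, ended without any wild-type array other than P7 array 1, with adjusted p up to 0.10.

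Signalling through heterotrimeric G proteins had more falls than rises: 12 of 33 RGS and G-protein genes fell and 6 rose, with a median of -0.30. The inhibitory alpha subunit Gnai3 read 1040.3, 1079, 1094 and 1065 at P7 and 365, 329 and 358 in the adult (log2 difference -1.61, SE 0.17, adjusted p = 9.7e-06). The beta subunit Gnb4 fell 3.08-fold (log2 difference -1.62, SE 0.24, adjusted p = 2.1e-04). Rgs8 and Rgs14, which speed up GTP hydrolysis by alpha subunits, rose with log2 differences of 1.13 and 1.00 (adjusted p = 6.6e-04 and 0.0011). In cyclic nucleotide signalling 7 of 27 rose and 2 fell, among the rises the calcium-stimulated phosphodiesterase Pde1b, from 717, 521, 436 and 362 to 978, 898 and 1044 (log2 difference 0.98, SE 0.26, adjusted p = 0.010).

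Few neuropeptide genes passed: 4 of 28 rose and 3 fell, shares near the background of 11.8% and below that of 19.6%. Trh, the thyrotropin-releasing hormone, rose from 24.6, 53.2, 47.4 and 55.3 to 125, 97.5 and 92.5 (log2 difference 1.28, SE 0.31, adjusted p = 0.0064). Cort (cortistatin) read 190.4, 223, 186 and 186 at P7 and 64.6, 91.8 and 95.4 in the adult (log2 difference -1.24, SE 0.22, adjusted p = 8.2e-04). Adcyap1, the precursor of PACAP, read 297, 339.9, 273 and 197 at P7 and 138, 121 and 125 in the adult (log2 difference -1.09, SE 0.19, adjusted p = 6.2e-04).

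The insulin-like growth factor system changed member by member. Igf2, an imprinted fetal growth factor made by meninges and choroid plexus, read 2178, 2715, 2482 and 3247 at P7 and 726, 708 and 788 in the adult (log2 difference -1.83, SE 0.15, adjusted p = 1.4e-06). Igf1 did not pass: it read 699, 512, 425 and 450.4 at P7 and 518, 556 and 618 in the adult (log2 difference 0.14, 95% interval -0.25 to 0.53). Of the binding proteins, Igfbp2 fell, from 1395, 2230.5, 635 and 748 to 334, 373 and 419 (log2 difference -1.56, SE 0.32, adjusted p = 0.0020). Igfbp6 rose, from 33.7, 18.1, 16.4 and 30.8 to 328, 209.8 and 218 (log2 difference 3.39, SE 0.32, adjusted p = 4.4e-06). Fgf1, a fibroblast growth factor without a secretion signal, rose 4.79-fold (log2 difference 2.26, SE 0.38, adjusted p = 4.9e-04). Over 39 growth factor and receptor genes, 9 rose and 5 fell (median 0.07). Besides Igf2 and Cdkn1c, the imprinted gene Ndn (necdin), active in postmitotic neurons, fell, from 3385, 3522, 3247 and 2934 to 1264, 1246 and 1118 (log2 difference -1.43, SE 0.13, adjusted p = 2.0e-06). The imprinted genes as a list had 2 rises and 5 falls among 24, and their median of -0.11 turned to 0.06 under 2% trimmed-mean and 75th-percentile scaling.

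Clock genes and thyroid hormone response genes rose more often than they fell. Of 16 circadian genes, 5 rose and none fell (median 0.65). The labels give no hour of collection, so time of day was not tested. Bhlhe40, a repressor in the clock circuit, read 61.8, 71.7, 98.03 and 68.1 at P7 and 289, 233 and 232 in the adult (log2 difference 1.76, SE 0.21, adjusted p = 3.3e-05). Nr1d2 (Rev-erb beta) read 191, 131, 136 and 132 at P7 and 283, 367 and 369 in the adult (log2 difference 1.21, SE 0.26, adjusted p = 0.0028). Tef, a PAR bZip factor, rose (log2 difference 0.83, SE 0.20, adjusted p = 0.0063). Thyroid hormone drives much of postnatal brain maturation, and 8 of 14 genes of that list rose and 1 fell (median 0.92). Its 2 receptors moved apart. Thrb read 15.8, 22.8, 18.96 and 17.4 at P7 and 59.2, 55.9 and 57.3 in the adult (log2 difference 1.63, SE 0.32, adjusted p = 0.0017). Thra read 6147, 6766, 4603 and 4945 at P7 and 2300.4, 2526 and 2729.6 in the adult (log2 difference -1.14, SE 0.18, adjusted p = 2.4e-04). A dimmer Thra probe set had a log2 difference of 0.20 and did not pass. Aldh1a1, which makes retinoic acid, rose 3.44-fold (log2 difference 1.78, SE 0.28, adjusted p = 2.7e-04), but its second probe set did not pass (log2 difference 0.18).

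Activity-regulated genes showed no common direction, with 3 rises and 3 falls among 26. These shares, 11.5% each, lay near the background of 11.8% for rises and below that of 19.6% for falls. Fosb read 130.1, 113, 108 and 111 at P7 and 206, 191 and 213 in the adult (log2 difference 0.82, SE 0.15, adjusted p = 0.0011) and Egr1 376, 159.7, 186 and 196 at P7 and 397, 431 and 547 in the adult (log2 difference 1.07, SE 0.27, adjusted p = 0.0083), both higher in the adult. Ier2 fell, from 205, 189, 122 and 129 to 102, 72.1 and 68.9 (log2 difference -0.98, SE 0.25, adjusted p = 0.0090).

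Myelin genes and oligodendrocyte precursor genes went in opposite directions. Of 22 myelin and oligodendrocyte genes, 13 rose and 2 fell (median 1.14), and of 6 precursor genes none rose and 3 fell (median -0.78). Septin4, a filament protein of myelin, read 229, 109.7, 195 and 215 at P7 and 1247, 1259 and 1219 in the adult (log2 difference 2.79, SE 0.22, adjusted p = 9.0e-07). Its second probe set rose with a log2 difference of 1.47. Apod, a lipid-binding apolipoprotein of oligodendrocytes, read 136, 129, 120.1 and 188 at P7 and 939.6, 749 and 932 in the adult (log2 difference 2.62, SE 0.23, adjusted p = 2.0e-06). Mal, a raft protein of myelin, read 333, 149.5, 144 and 158 at P7 and 684, 831 and 922 in the adult (log2 difference 2.13, SE 0.26, adjusted p = 3.1e-05). Of the precursor genes, the phosphatase Ptprz1 read 707, 909, 1211 and 1241 at P7 and 259, 308 and 322 in the adult (log2 difference -1.75, SE 0.24, adjusted p = 9.3e-05), and the growth factor receptor Pdgfra 713, 376, 572 and 547 at P7 and 293, 333 and 295 in the adult (log2 difference -0.81, SE 0.21, adjusted p = 0.0086).

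Among enzymes of cholesterol synthesis, a lipid in which myelin is rich, falls outnumbered rises. In the cholesterol and lipid list 9 of 26 fell and 2 rose (median -0.38). Squalene epoxidase, Sqle, read 1225, 1857, 1429 and 1407 at P7 and 326, 319.6 and 306 in the adult (log2 difference -2.20, SE 0.18, adjusted p = 1.0e-06). Cyp51, which removes a methyl group from lanosterol, read 124, 203, 178 and 176 at P7 and 56.6, 46.3 and 51.1 in the adult (log2 difference -1.71, SE 0.23, adjusted p = 9.4e-05). Hmgcs1, the cytosolic HMG-CoA synthase, read 961, 1206, 1619.8 and 1874 at P7 and 481, 799 and 492 in the adult (log2 difference -1.26, SE 0.24, adjusted p = 0.0014). Scd1, a stearoyl-CoA desaturase, rose, from 485, 495, 652 and 717 to 956, 1303 and 1036 (log2 difference 0.91, SE 0.20, adjusted p = 0.0039).

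Astrocyte genes rose more often than they fell, 12 against 2 of 30 (median 0.50). The gap-junction protein Gjb6 (connexin 30) read 132, 64.2, 40.97 and 48.8 at P7 and 302, 286 and 219.5 in the adult (log2 difference 2.05, SE 0.33, adjusted p = 3.4e-04). Metallothionein 1, Mt1, a zinc-binding protein, read 616, 639, 544 and 661 at P7 and 3449.9, 2118 and 2319 in the adult (log2 difference 2.07, SE 0.22, adjusted p = 1.1e-05). Mt2 was called higher (log2 difference 1.24, SE 0.31, adjusted p = 0.0080; not called without adult array 1, with adjusted p = 0.051), and so was Mt3 (log2 difference 0.61, SE 0.19, adjusted p = 0.023; not called without P7 array 2, adult array 1, adult array 2 or adult array 3, with adjusted p up to 0.074). Gfap, the filament of astrocytes, gave probe sets that disagree: the brighter read 685, 553, 710.4 and 745 at P7 and 474, 424 and 472 in the adult (log2 difference -0.55, SE 0.17, adjusted p = 0.022), not called under the 3 other scalings or without P7 array 3, P7 array 4, adult array 2 or adult array 3, with adjusted p up to 0.085, and the dimmer had a log2 difference of 0.40 and did not pass. Id4, an inhibitor of bHLH factors, fell (log2 difference -0.82, SE 0.23, adjusted p = 0.015; not called without adult array 3, with adjusted p = 0.067).

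Of 17 microglia genes 2 rose and none fell, a share of rises of 11.8%, the same as over all genes. The fractalkine receptor Cx3cr1 read 79.8, 75.4, 82.8 and 33.7 at P7 and 169, 203 and 217 in the adult (log2 difference 1.61, SE 0.28, adjusted p = 6.3e-04). The call of the other, C1qa, ended without P7 array 2, adult array 1 or adult array 2, with adjusted p up to 0.092. Of 11 genes of antigen presentation and the interferon response 2 rose and none fell. Ifi27, an interferon-responsive gene, rose, from 38.3, 28.6, 114 and 72.96 to 326, 349 and 307 (log2 difference 2.57, SE 0.58, adjusted p = 0.0039). In endothelial and mural cells 6 of 25 rose (24%) and 7 fell (28%), against 11.8% and 19.6% over all genes. Cldn5, the tight-junction claudin of brain vessels, read 853, 1089.5, 578 and 588 at P7 and 182, 379 and 321 in the adult (log2 difference -1.42, SE 0.29, adjusted p = 0.0021). Cdh5 (VE-cadherin) fell (log2 difference -1.13, SE 0.25, adjusted p = 0.0034). The glucose transporter Slc2a1 (GLUT1) rose, from 14.7, 71.3, 47.8 and 53.1 to 365, 155 and 172 (log2 difference 2.40, SE 0.61, adjusted p = 0.0085).

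Of 53 collagen and fibrous matrix genes, 13 fell and 2 rose (median -0.32), a share of falls of 24.5% against 19.6% over all genes. Of 22 genes of the brain's hyaluronan-based matrix, in which tenascin-R itself lies, 7 fell and 2 rose (median -0.37), a share of falls of 31.8%. That median was -0.37 with P7 arrays 1 and 2 alone and -0.10 with P7 arrays 3 and 4 alone. With a gene's probe sets averaged it turned to 0.06. Elastin, Eln, read 937, 1081, 763 and 836 at P7 and 193, 162 and 157 in the adult (log2 difference -2.40, SE 0.15, adjusted p = 2.2e-07), and its dimmer probe set did not pass (log2 difference -1.10). The basement-membrane collagen Col4a1 read 413, 491, 635 and 686 at P7 and 173, 125 and 127 in the adult (log2 difference -1.96, SE 0.22, adjusted p = 1.4e-05). Col3a1, a fibrillar collagen, read 66.00, 113, 147 and 138 at P7 and 40.9, 26.3 and 46.7 in the adult (log2 difference -1.59, SE 0.41, adjusted p = 0.0085). Agrn (agrin), a heparan sulfate proteoglycan, fell, from 774, 1103, 978 and 1027 to 474, 384 and 441 (log2 difference -1.16, SE 0.15, adjusted p = 6.8e-05), while its second probe set had a log2 difference of 0.35. Of the lecticans, chondroitin sulfate proteoglycans that bind hyaluronan, Ncan fell (log2 difference -0.77, SE 0.16, adjusted p = 0.0024) and so did Vcan (log2 difference -1.41, SE 0.32, adjusted p = 0.0044), while Bcan did not pass (log2 difference -0.53, 95% interval -1.07 to 0.01). Sdc4, a syndecan of the cell surface, rose, from 118, 129, 142 and 127 to 439.7, 308 and 257 (log2 difference 1.34, SE 0.26, adjusted p = 0.0012).

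**Figure D4:**
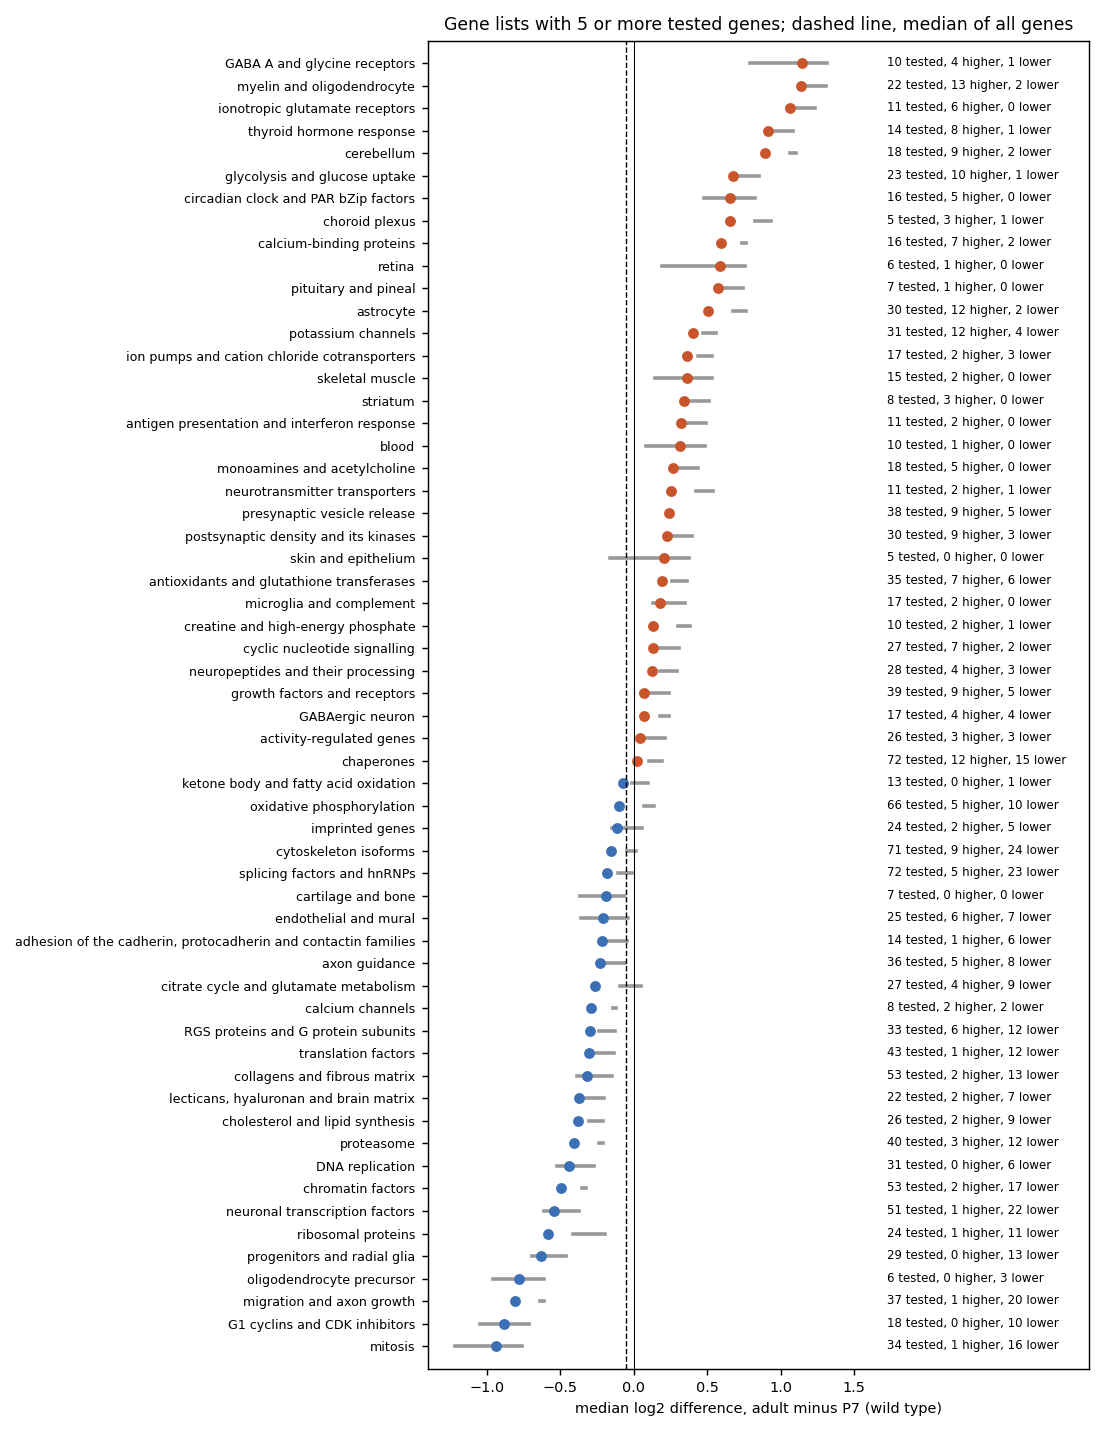
Median log2 difference, adult minus P7, of 58 gene lists with 5 or more tested genes in wild-type brain (dots, orange above 0 and blue below), beside the number tested and called; grey bars span the medians under 3 other scalings and the dashed line is the median of all genes, -0.05. Receptor, myelin and glycolysis lists lie above 0 and mitosis, migration and ribosomal lists below it.

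Glycolytic genes rose more often than genes at large. Of 23 glycolysis and glucose uptake genes, 10 rose and 1 fell (median 0.68). Pfkm, a subunit of the rate-controlling phosphofructokinase, read 230.0, 254, 412 and 437 at P7 and 1919, 1669 and 1759 in the adult (log2 difference 2.47, SE 0.51, adjusted p = 0.0023). The neuronal enolase Eno2 read 798, 746, 852 and 1035 at P7 and 2383, 2645 and 2362 in the adult (log2 difference 1.53, SE 0.27, adjusted p = 6.3e-04). The muscle enolase Eno3 was called higher (log2 difference 0.68, SE 0.21, adjusted p = 0.024; not called without P7 array 1 or adult array 3, with adjusted p up to 0.13). Pyruvate kinase, Pkm, read 1239.6, 1208, 1504 and 2027 at P7 and 4236, 4441 and 4609 in the adult (log2 difference 1.60, SE 0.35, adjusted p = 0.0031), and a dimmer probe set did not pass (log2 difference 0.27). The lactate dehydrogenase subunits were called in opposite directions: Ldhb read 514, 354, 482 and 483 at P7 and 1188, 983 and 1021 in the adult (log2 difference 1.23, SE 0.16, adjusted p = 7.0e-05). Ldha was called lower (log2 difference -0.73, SE 0.22, adjusted p = 0.021). The 3 other scalings ended the Ldha call, and it ended without P7 array 3, P7 array 4, adult array 1 or adult array 3, with adjusted p up to 0.065.

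In the lists of oxidative phosphorylation and the citrate cycle falls outnumbered rises with median scaling, and rises outnumbered falls with the trimmed mean and with quantile normalization. Of 66 oxidative phosphorylation genes 5 rose and 10 fell (15.2%, below the 19.6% of all genes). With the trimmed mean 9 rose and 8 fell, and with quantile normalization 9 and 6; their median of -0.10 turned positive under all 3 other scalings (up to 0.14). In the citrate cycle and glutamate list 4 of 27 rose and 9 fell, with a median of -0.26. There the trimmed mean gave 5 rises and 4 falls and quantile normalization 5 and 3. Sdha, the catalytic subunit of succinate dehydrogenase, rose, from 82.6, 82.4, 119 and 135 to 324, 361 and 283 (log2 difference 1.65, SE 0.24, adjusted p = 1.8e-04). The isocitrate dehydrogenase Idh1 of the cytosol fell, from 289.6, 489, 541 and 578 to 163, 166 and 153 (log2 difference -1.51, SE 0.24, adjusted p = 3.4e-04). Of 10 genes of creatine and high-energy phosphate 2 rose and 1 fell; the mitochondrial adenylate kinase Ak4 read 99.2, 77.8, 81.2 and 79.7 at P7 and 191, 217 and 141 in the adult (log2 difference 1.10, SE 0.21, adjusted p = 0.0013). Suckling mice burn ketone bodies from milk fat. Oxct1, the enzyme that activates acetoacetate for that use, read 2441, 2187, 3083 and 3066 at P7 and 749, 664 and 786 in the adult (log2 difference -1.87, SE 0.18, adjusted p = 4.1e-06) and was the 1 gene called among 13 of ketone body and fatty acid oxidation.

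In the lists of chromatin, splicing, ribosomal, translation and proteasome genes 27.9% to 45.8% fell with median scaling, against 19.6% over all genes. In each list 17 to 26 genes lay in the brightest bin, in which 35.9% of probe sets fell. After quantile normalization 11 chromatin, 15 splicing, 6 translation and 7 proteasome genes fell, with 1073 over all genes. Of 53 chromatin factors 17 fell and 2 rose (median -0.50). The 2 catalytic subunits of the polycomb complex PRC2 moved apart. Ezh2, the form of dividing cells, read 152, 101, 169 and 182 at P7 and 28.6, 60.7 and 21.4 in the adult (log2 difference -2.14, SE 0.33, adjusted p = 2.6e-04). Ezh1, the form of postmitotic cells, read 48.8, 59.6, 78.8 and 92.9 at P7 and 172, 168 and 104 in the adult (log2 difference 1.09, SE 0.26, adjusted p = 0.0052). Hmgb3, a DNA-bending protein of progenitors, read 1782, 1877, 2135 and 2100.1 at P7 and 495, 498 and 473 in the adult (log2 difference -2.01, SE 0.17, adjusted p = 1.7e-06), and the histone deacetylase Hdac2 1001, 1027, 1112 and 1207 at P7 and 448, 290.5 and 289 in the adult (log2 difference -1.69, SE 0.22, adjusted p = 5.3e-05).

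Of 72 splicing factors and hnRNPs 23 fell and 5 rose (median -0.18). Pabpc1, the poly(A)-binding protein, fell, from 2713, 2999, 1923 and 1849.7 to 822, 998 and 574 (log2 difference -1.58, SE 0.22, adjusted p = 1.0e-04). Hnrnpd, which binds AU-rich RNA, fell from 838, 921, 929.8 and 595 to 307, 291 and 241 (log2 difference -1.54, SE 0.21, adjusted p = 8.5e-05). Of 24 ribosomal proteins with a single-gene probe set 11 fell and 1 rose. After quantile normalization 3 fell and 2 rose, and 35.9% of the brightest bin of probe sets fell in all. Rplp0 read 4157, 6467, 5812 and 6053 at P7 and 1914, 1805 and 1635 in the adult (log2 difference -1.64, SE 0.18, adjusted p = 1.5e-05). Among 43 translation factors 12 fell and 1 rose, and among 40 proteasome genes 12 fell and 3 rose (medians -0.30 and -0.41). The proteasome assembly chaperone Psmd5 read 770.3, 655, 513 and 651 at P7 and 142, 179 and 202 in the adult (log2 difference -1.89, SE 0.20, adjusted p = 1.1e-05). The ATPase subunit Psmc1 rose, from 209, 207, 256 and 288 to 558, 427 and 402 (log2 difference 0.95, SE 0.23, adjusted p = 0.0056).

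Chaperones went both ways, 12 of 72 rising and 15 falling, shares near the background. Stip1, the adaptor between Hsp70 and Hsp90, read 62.4, 83.1, 86.9 and 113 at P7 and 460.1, 511 and 376 in the adult (log2 difference 2.40, SE 0.41, adjusted p = 5.2e-04). Fkbp1b, a prolyl isomerase bound to ryanodine receptors, read 1787, 1507, 1409 and 1345 at P7 and 457, 456 and 401 in the adult (log2 difference -1.78, SE 0.16, adjusted p = 2.0e-06). Of antioxidant and glutathione transferase genes 7 of 35 rose and 6 fell; Gsta4, which conjugates lipid aldehydes, rose from 13.3, 24.3, 14.1 and 16.8 to 75.5, 74.01 and 58.5 (log2 difference 2.05, SE 0.42, adjusted p = 0.0021). Prdx4, a peroxiredoxin of the endoplasmic reticulum, fell, from 196, 214, 303 and 277 to 91.1, 55.6 and 96.1 (log2 difference -1.63, SE 0.22, adjusted p = 1.0e-04).

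Several of the 20 largest rises and 20 largest falls belong to no list above. Gosr2, a SNARE of the Golgi, read 16.9, 20.3, 13.4 and 12.6 at P7 and 130.4, 196 and 172 in the adult (log2 difference 3.40, SE 0.26, adjusted p = 7.6e-07), but 2 other Gosr2 probe sets had log2 differences of -0.30 and -0.20 and did not pass. Gosr1, its partner in the Golgi, rose 11.4-fold (log2 difference 3.52, SE 0.41, adjusted p = 2.2e-05). Lgi4, a secreted glial protein of myelination, read 24.5, 19.8, 17.9 and 18.6 at P7 and 111, 164 and 216 in the adult (log2 difference 2.98, SE 0.28, adjusted p = 4.1e-06). Among the falls, Nt5dc2 read 389, 355, 311 and 408 at P7 and 44.02, 44.6 and 41.9 in the adult (log2 difference -3.06, SE 0.19, adjusted p = 2.2e-07), and Strap, a WD-repeat protein, 1551, 1261, 1727 and 1655 at P7 and 266, 137 and 128 in the adult (log2 difference -3.20, SE 0.35, adjusted p = 1.2e-05).

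Markers of regions and of tissue next to the brain were listed as well. Of 18 cerebellar genes 9 rose and 2 fell (median 0.89), of 8 striatal genes 3 rose (median 0.34). The cerebellar rises included the Purkinje cell phosphatase inhibitor Ppp1r17 (log2 differences 2.18 and 4.10 on its 2 probe sets), and the falls the granule-precursor factor Neurod1, from 412, 163, 351 and 382 to 85.5, 177 and 162 with overlapping groups (log2 difference -1.19, SE 0.33, adjusted p = 0.014; not called without adult array 1, with adjusted p = 0.084). On the Ppp1r17 probe set with the larger difference, 2 P7 arrays lay under the floor. Of GABAergic neuron genes as many rose as fell, 4 of 17 each. Of 7 pituitary and pineal genes 1 rose, prolactin (Prl), which read 12.4, 12.4, 14.2 and 30.6 at P7 and 225, 116 and 154 in the adult (log2 difference 3.31, SE 0.60, adjusted p = 9.0e-04). Growth hormone, Gh, ranged from 106 to 139 at P7 and from 168 to 189 in the adult, without overlap, and did not pass (log2 difference 0.57, SE 0.77). The pituitary hormone precursor Pomc ranged from 83.5 to 129 at P7 and from 45.0 to 86.0 in the adult. Of 5 choroid plexus genes 3 rose and 1 fell, with Folr1, the folate receptor of that epithelium, at 14.2, 14.7, 20.1 and 43.3 at P7 and 105, 109 and 127 in the adult (log2 difference 2.45, SE 0.60, adjusted p = 0.0064). Of 10 blood genes 1 rose, of 15 muscle genes 2, of 6 retina genes 1, and of 7 cartilage and bone and 5 skin genes none was called in either direction. The part of the amount of pituitary, choroid plexus and cerebellum in the dissected brains in these differences was not tested.

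Some bright genes stayed within narrow bounds. The translation factor Eef1a1 read 5209.9, 5769.7, 7607 and 8257 at P7 and 6973, 6199.9 and 6892 in the adult (log2 difference 0.02, 95% interval -0.37 to 0.41). The small GTPase Arf1, which acts at the Golgi, had a log2 difference of -0.03 (-0.35 to 0.28). The neurite protein Ncdn (neurochondrin) had one of 0.02 (-0.31 to 0.36). The amyloid precursor protein, App, had one of -0.15 (-0.44 to 0.14). Quantile normalization turned that to a called rise of 0.32 (adjusted p = 0.042).

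The 7 arrays of mice lacking tenascin-R carry the same age contrast, and their signals do not enter the wild-type group means. They did enter the filter, the floor and the spread behind the wild-type calls, so the 2 sets of calls are not independent. A fit to the 7 wild-type arrays alone called 2562 probe sets, and its overlap with the knockout calls was not counted. The Gapdh 3'/5' ratio of the knockout arrays at P7 was 0.789 for array 1 and lay between 2.77 and 3.505 for the others. Fitted alone, they gave 1906 called probe sets (22.8%), 835 higher (9.98%) and 1071 lower (12.8%). Of the 1083 probe sets higher in adult wild type, 97.5% had the same sign there and 54.8% were called higher, which is 71.1% of the rises among these arrays. Of the 1483 lower, 98.4% had the same sign and 59.6% were called lower, 82.5% of the falls among them. Over all tested probe sets, called or not, 80.9% had the same sign. The log2 difference of Crmp1, for example, was -2.36 in wild type and -2.67 without tenascin-R, that of Kalrn 2.28 and 2.81, and that of Mycn -2.51 and -3.01. The call count fell to between 1007 and 1214 when 1 adult array was left out (1214, 1017 and 1007 without knockout adult arrays 1, 2 and 3). The age contrasts of the 2 genotypes differed in 0 of 8366 probe sets (0%) by the limma test of the difference itself, whose smallest adjusted p was 0.99 and which gave 315 probe sets at an unadjusted p under 0.05; this does not show that the contrasts are alike.

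**Figure D5:**
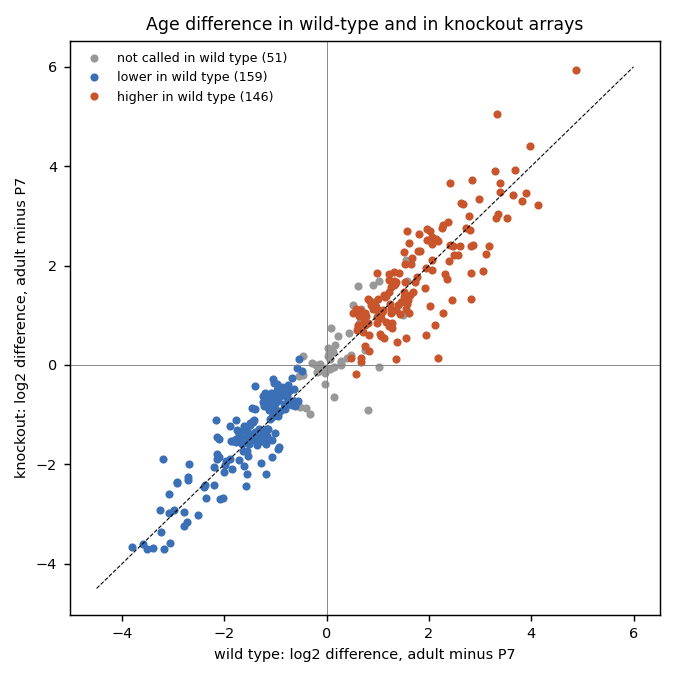
Log2 difference, adult minus P7, in wild-type arrays (horizontal) and in arrays of mice lacking tenascin-R (vertical) for the 356 probe sets of genes chosen for description; the dashed line marks equal differences. Of 146 called higher in wild type 145 lie above 0 on the vertical axis, and of 159 called lower 158 lie below it.

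One probe set was called in opposite directions in the 2 genotypes. It belongs to Gstm5, a glutathione transferase, and was singled out after its values were seen: wild type read 34.4, 180.1, 102 and 153 at P7 and 28.7, 35.0 and 37.3 in the adult (log2 difference -1.57, adjusted p = 0.019), whereas the knockout means were 48.7 at P7 and 132 in the adult (log2 difference 1.51, adjusted p = 0.012). The wild-type groups overlap through P7 array 1. The limma test of the difference between the 2 age contrasts did not call this probe set.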

How the data were processed

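Total RNA of whole brain, extracted with TRIzol and RNeasy per the labels' protocols, was hybridised to 3' arrays of 12488 probe sets, 66 of them controls. The authors deposited 1 linear signal intensity per probe set and array, computed with MAS5 per the submitters' processing notes; detection calls and scanner files were not analysed here. Gene names came from the platform annotation: 10855 probe sets had 1 gene symbol, 396 several and 1237 none, and 10839 of the former matched a RefSeq gene.

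Kept were probe sets that reached the 40th percentile of the array on 3 or more of the 14 arrays, arrays were scaled to a common median over them, signals were raised to a floor at the 20th percentile of all scaled values, and log2 was taken. limma 3.58.1 in R 4.3.3 fitted 4 group means to 14 arrays with a mean-variance trend, and p-values were adjusted by Benjamini-Hochberg over 8366 probe sets; the fit was checked on simulated data. Lists count 1 probe set per gene, that of highest mean signal. Figures were drawn with matplotlib 3.10.9 in Python 3.11.15.

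The members and lists were chosen with earlier results of these data known. Named genes were drawn from the 20 largest measured rises and 20 largest falls. Others came from each list, up to 4 members in its prevailing direction and up to 2 in the other. Measured members of some families and bright genes that did not change were added, and exceptions are stated. Not every gene so chosen is named above. Mobp, with the largest such rise, is not (log2 difference 4.63 to 5.34 whichever wild-type array was left out). Nor are Traf4, with the largest such fall (-4.04 to -3.37, and -0.87 on a second probe set), and the progenitor gene Fabp7 (-3.70 to -3.20). The alternatives were 3 other scalings, a pseudocount of 16, a higher floor, 2 other filters, 2 other variance models, a replicate block, the mean of a gene's probe sets, and subsets of the arrays.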

Additional observations from a re-analysis of the deposited data

Results flagged for a closer look

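Among 210 probe sets named here that were tested for it, 16 had 1 P7 array far from the other 3; chance alone flags about 1 in 20 groups. The adult groups of 3 arrays were not tested. On P7 array 1 the signal was low for Cd24a (1089.9), Nrp1 (286), Tubb3 on its dimmer probe set (1897) and Tubb5 on both (5684 and 3446), and high for Nr1d2 (191), Mal (333) and Glra1 (161). On P7 array 2 it was low for Kcnab1 (48.7), Rgs8 (197), Aldh1a1 (176), Tuba8 (238) and Ldhb (354), and high for Cort (223). On P7 array 4 it was high for Prl (30.6) and low for Cx3cr1 (33.7).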

How the results depend on the processing

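The comparison rests on 4 against 3 arrays, so only differences well above the median SE could be called. No sequencing depth applies to arrays; signal over background limits them, and the floor of 10.1 limits dim probe sets. The split between rises and falls depended on the scaling: 42.2% of calls were higher with median scaling, 59.9% with trimmed-mean scaling, 60.02% with 75th-percentile scaling, 45.7% with quantile normalization and 33.3% with no filter on dim probe sets. The 2% trimmed mean and the 75th percentile each moved the median of all probe sets to 0.17 on the log2 scale.

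Counts of calls moved as follows. With array weights 1680 probe sets and 1129 genes were called higher, against 1083 and 742. Without the 2 arrays with Xist signal the counts were 711 and 475. With no filter, counted over the same genes, 395 were called higher and 1739 lower, against 742 and 1225. Leaving out 1 wild-type array gave 1785 to 2485 calls of 2566, 697 to 1009 probe sets higher and 1088 to 1476 lower, and 470 to 685 genes higher and 901 to 1210 lower, with the lowest value of each without adult array 3. Leaving out 1 knockout array, an alternative chosen after seeing the data, gave 1007 to 2198 calls of 1906. The test of a difference in age contrast between genotypes called 0 probe sets; it called 2 with the floor at the 40th percentile, 9 with no filter, 1 with array weights, 16 with P7 arrays 3 and 4 as the only wild-type P7 arrays, and 0 to 1 when 1 array was left out. The cause of these shifts was not tested.

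The replicate numbers did not pair the arrays: the deviations of same-numbered P7 and adult arrays correlated at -0.14, -0.03 and -0.16. With the replicate number as a block 2261 probe sets were called in wild type and 1293 in the knockout.

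Of 305 called probe sets among the 356 chosen for description, 181 kept direction and call under every alternative and 229 whichever wild-type array was left out. Over 7787 pairs of a probe set and an alternative, 607 lost a call and 65 gained one with the sign kept. In 34 the sign changed by a shift above the SE, without a call in either fit. Shifts in size that kept sign and call were not counted. The sign reversed with a call in at least 1 of the fits in 4 pairs. Those were App, called higher by 0.32 after quantile normalization, and, with a gene's probe sets averaged, Tubb2a at -0.15, Stmn2 at -0.61 and Vamp2 at 0.51 against the other sign of a single probe set. Besides those marked above as lost under another scaling or without 1 array, calls that ended in at least 1 fit were those of Cacna2d1, Col3a1, Egr1, Gabrd, Grin2c, Kcnk2, Pde1b, Pdgfra, Tmsb4x, a Tubb5 probe set and Vcan with P7 arrays 1 and 2 only, Cplx1, Folr1 and Ier2 with P7 arrays 3 and 4 only, Cdh5, Dlg1, Ezh1, Psmc1, Scn1a and a Tubb5 probe set without the 2 arrays with Xist signal, Dlg1, Egr1, Grin2c and Pde1b with no filter, and Gabra3 and Gria4 with the floor at the 40th percentile. List medians stayed within the spread between replicates in 990 of 1318 alternatives, and 22 lists changed sign under at least 1.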
